A study of Mus musculus with 22 samples.

Results

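Genes of the DNA replication machinery were followed through mouse oocyte growth, fertilisation and the first cleavage, in the presence or absence of maternal Setd2, which writes the H3K36me3 mark on histone H3. The set holds 51 genes out of 22592 gene symbols in the tables. Its members were picked by symbol, with earlier results of these data known. It takes in the Mcm genes, the subunits of the origin recognition complex (Orc), GINS (Gins), replication factor C (Rfc) and replication protein A (Rpa), primase (Prim), DNA polymerases alpha, delta and epsilon (Pola, Pold, Pole), and Pcna, Cdc6, Cdc7, Cdc45, Cdt1, Gmnn, Dbf4, Fen1, Lig1, Top2a, Rrm1 and Rrm2. Levels are in FPKM, fragments per unit of transcript length and sequencing depth. Comparisons between genes rest on this scaling by length alone, and other differences in how transcripts are captured were not tested. All 51 genes passed the filter on low values (1 FPKM or more in no fewer than 2 of a table's libraries) in each table that was tested.

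DNA replication starts where the origin recognition complex binds. Cdc6 and Cdt1 load the ring-shaped helicase made of Mcm2 to Mcm7 there, a step called licensing, and geminin (Gmnn) blocks Cdt1 so that an origin is not licensed again in the same cycle. The Cdc7 kinase with its activator Dbf4, and then Cdc45, GINS and Mcm10, switch the helicase on. Primase with polymerase alpha lays down primers, polymerase epsilon copies the leading strand and polymerase delta the lagging strand, the Rfc loader places the sliding clamp Pcna, and Rpa coats single-stranded DNA. Fen1 and Lig1 process and seal the lagging strand, Top2a untangles DNA, and Rrm1 with Rrm2 form the ribonucleotide reductase that makes deoxynucleotides. An oocyte is held in meiotic prophase and does not replicate its DNA. The zygote passes its first S phase largely with material stored in the oocyte, and in the mouse the major wave of the embryo's own transcription comes at the 2-cell stage.

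Smart-seq2 libraries came from 5 stages with 2 control and 2 Setd2 knockout libraries each. Growing oocytes of postnatal day 7 (P7), 20 to 30 μm wide, were Setd2+/- in controls and Setd2-/- in the knockout. Full-grown oocytes (FGO, germinal vesicle stage) were taken from 8-week-old females 48 h after PMSG, and zygotes 30 h after hCG, with genotypes given only as Setd2 control or Setd2 knockout and described as a maternal knockout. Embryos labelled 48 h were at the 2-cell stage in controls but at the 1-cell stage in the knockout, so genotype and cell stage cannot be told apart there. Spindle-transfer (ST) 8-cell embryos came from oocytes whose spindle and chromosomes had been moved between control and Setd2 knockout oocytes before sperm injection, and they are labelled Setd2+/- and Setd2-/-. The labels do not say which side gave the cytoplasm. Full-grown oocytes labelled Dnmt3l knockout and Dnmt3l control had 1 library each, in columns named as merged. The age of the females is given as 8 weeks for every group other than the P7 oocytes. The Cre driver, the deleted part of Setd2 and the number of animals per library are not given in the sources used here, so a p-value reflects no more than the spread among the libraries at hand, which may be technical. P7 oocytes, the 12 libraries of full-grown oocytes, zygotes and 48 h embryos, the ST embryos and the Dnmt3l pair stand in 4 tables that were normalised separately, and every test stays within a table.

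Estimated depth was 5.72 to 6.58 M fragments in P7 libraries (M, mega). Full-grown oocytes had 10 to 24, zygotes 3.35 to 3.72, embryos of 48 h 3.54 to 5.17 and ST embryos 6.59 to 8.24. Setd2 transcript in full-grown oocytes stood at 4.75 and 4.35 in controls and 0.968 and 0.927 in the knockout (adjusted p = 0.0102). In zygotes it stood at 12.1 and 8.85 in controls and 1.305 and 1.73 in the knockout (adjusted p = 0.000208). At 48 h it stood at 53.2 and 43.02 in controls and 1.42 and 1.74 in the knockout (adjusted p = 7.44e-08). At P7 it was 4.33 and 6.68 in controls and 3.67 and 3.21 in the knockout (adjusted p = 0.799), which lay apart without passing. In ST embryos it was 18.2 and 17.1 under the label Setd2+/- and 15.4 and 18.1 under Setd2-/- (adjusted p = 0.934), where the labels overlapped, so the ST libraries are given by their labels. Dnmt3l transcript stood at 31.7 FPKM in the library labelled Dnmt3l control and 25 in the library labelled Dnmt3l knockout, so it does not tell these libraries clearly apart. Where a deletion lies relative to the counted exons is not given in the sources used here. All 11 oocyte markers were at 1 FPKM or more in every oocyte library, and 4 markers of blood and stroma summed to at most 1.53 FPKM in any library. The 10 granulosa and cumulus markers summed to 36.2 to 41.6 FPKM in full-grown oocytes of both Setd2 genotypes, but single markers differed. Inha stood at 14.8 and 15.1 in controls and 0.816 and 0.519 in the knockout, Cyp11a1 at 3.199 and 2.37 in controls and 0.293 and 0.323 in the knockout, and Fshr at 0.415 and 0.1804 in controls and 9.49 and 8.25 in the knockout. In the Dnmt3l pair the sum was 57.3 in the library labelled control and 31.7 in the library labelled knockout, with Inha at 22.1 and 1.63. The part of granulosa and cumulus RNA in the results on full-grown oocytes was not tested. The 5 of 7 markers of 2-cell embryos found in the tables summed to 105 to 133 FPKM in control 48 h libraries and 7.26 to 31.1 in the knockout. Zfp352 and Tdpoz4 made up most of the control sums. Zscan4d overlapped between genotypes, at 16.6 and 13.2 in controls and 3.88 and 16.7 in the knockout. Zfp352, Tdpoz4, Usp17le and Zscan4c were lower in both knockout libraries than in either control library.

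Summed over the 51 genes, the level stayed within a narrow band, from 2459 FPKM in an ST library labelled Setd2-/- to 3770 in a control 48 h library, or 0.537% to 0.835% of a library's total. The genes themselves were far from even. At P7 in controls the median gene stood at 38.1 and 35.7 FPKM and in control 48 h embryos at 24.3 and 24.7 FPKM. Control 48 h libraries held the highest level of any Setd2 library for a member, Gmnn at 1035 FPKM, beside Pold4 at 0 in both libraries.

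**Figure D1:**
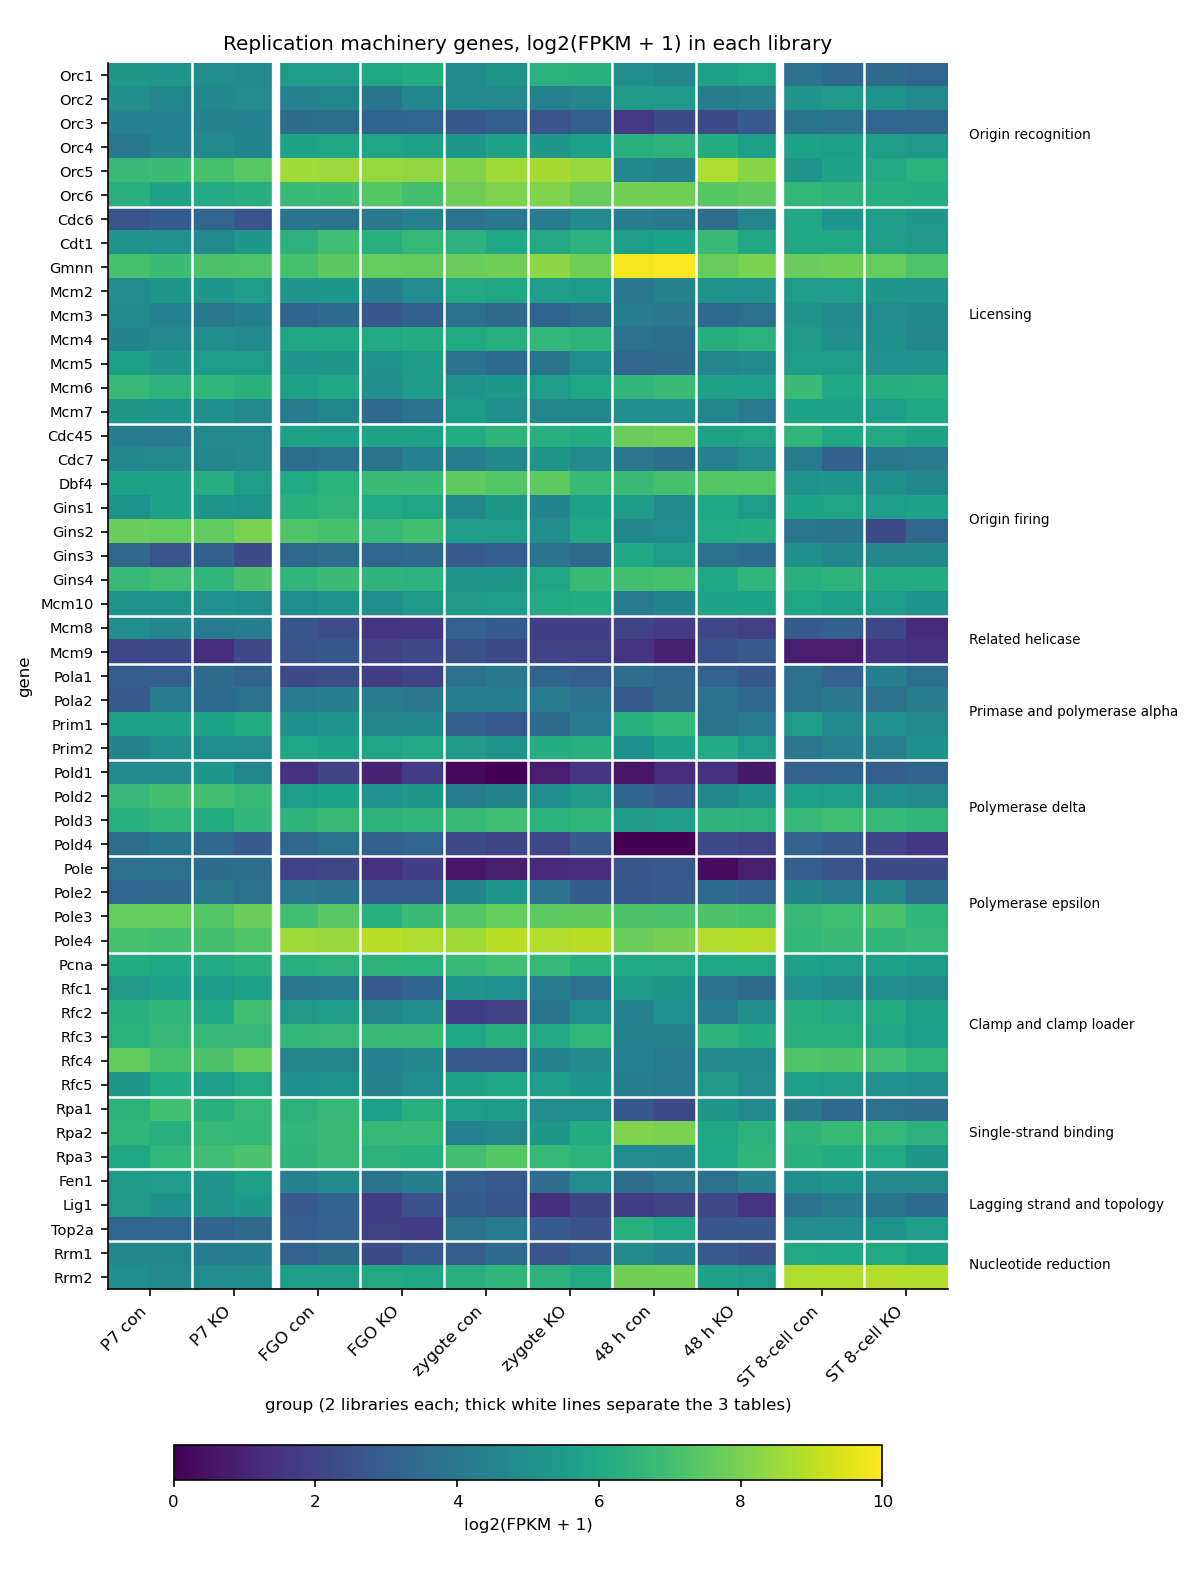
Level of each of the 51 genes, as log2(FPKM + 1) by colour, in the 20 Setd2 libraries (2 neighbouring columns a group), with genes ordered by role. The control 48 h columns stand out, with Gmnn near the top of the scale and Pold4 at 0, while the knockout 48 h columns look like the knockout zygote columns.

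Subunits that work in fixed proportion did not have even transcript levels. In control full-grown oocytes the Rpa subunits were close, from 92.4 ± 11.04 FPKM (mean ± SD, n = 2) for Rpa1 to 101 ± 8.76 for Rpa2. By control zygotes Rpa3 was highest at 146 ± 24.5 and Rpa2 lowest at 21.2 ± 2.03. In control 48 h embryos the order had turned, with Rpa2 at 259 ± 7.63 and Rpa1 at 4.83 ± 1.29, a ratio of 53.6. Rpa2 was also the highest and Rpa1 the lowest in ST embryos labelled Setd2+/- (97.96 ± 10.4 and 12.5 ± 4.04). At P7 in controls Rpa1 (106 ± 25.5) was highest and Rpa3 (80.8 ± 24.6) lowest by mean. Rpa1 stood at 87.8 and 123.9 and Rpa3 at 63.4 and 98.3 in the same 2 libraries, so each gene also differed between libraries.

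Among the origin recognition genes Orc5 was highest in control P7 oocytes (111 ± 4.92 FPKM), full-grown oocytes (379 ± 13.6) and zygotes (328 ± 72.6). Orc6 was highest in control 48 h embryos (234 ± 5.87) and ST embryos (92.3 ± 7.28). The lowest was Orc4 at P7 (17.9 ± 4.05), Orc3 in full-grown oocytes (10.9 ± 0.504), zygotes (6.52 ± 1.11) and at 48 h (3.04 ± 1.29). Orc1, which encodes the largest subunit, was lowest in ST embryos (11.3 ± 2.25). In the GINS complex Gins2 led in control P7 oocytes (205 ± 9.39), full-grown oocytes (144 ± 11.98) and zygotes (46.7 ± 1.52) over Gins3 (7.001 ± 2.67, 10.1 ± 1.004 and 6.52 ± 0.649). At 48 h Gins4 (131 ± 8.94) was highest and Gins2 (26.1 ± 2.82) lowest, and the same held in ST embryos (81.96 ± 7.83 and 13.8 ± 0.566). Exons of 18 members overlap those of another gene by at least 50 nt, and for 11 of them such a gene is in the tables. Gins2 is one of these 11, with Gse1 on the other strand over 2758 nt. Smart-seq2 reads carry no strand, so the level of Gins2 is uncertain. Neighbours not listed under their symbol, such as Ufd1, which shares 164 nt with Cdc45, could not be followed.

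In control full-grown oocytes and zygotes the catalytic subunits of polymerases delta and epsilon had the lowest transcript levels of their complexes. Pold1, the catalytic subunit of polymerase delta, stood at 1.76 and 3.095 FPKM in control full-grown oocytes against 89.5 and 106 for the accessory subunit Pold3. In control zygotes Pold1 was at 0.163 and 0, about 2 fragments in one library and none in the other, so it was at the limit of detection at this depth. Pole, the catalytic subunit of polymerase epsilon, stood at 3.02 and 3.39 in control full-grown oocytes and 0.5304 and 0.798 in control zygotes, where the histone-fold subunit Pole4 was at 375 and 352 and then 385 and 500.4. In control 48 h embryos Pole had 5.35 and 6.12 against 215 and 246 for Pole4, and Pold4 was listed at 0 in both libraries against 39.96 and 44.8 for Pold3. At P7 the range was narrower, with Pold2 at 117 ± 18.7 and Pold4 at 12.3 ± 2.08, and Pole3 at 199 ± 0.868 and Pole2 at 8.99 ± 0.537. In ST embryos labelled Setd2+/- Pold3 (111 ± 12.3) and Pold4 (7.13 ± 1.01) marked the ends for delta, and Pole3 (113 ± 5.41) and Pole (5.96 ± 1.35) for epsilon.

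Primase and polymerase alpha, which start each strand, changed their leading subunit with stage. Prim1, the catalytic primase subunit, was highest in control P7 oocytes (51.03 ± 1.45), 48 h embryos (88.7 ± 11.3) and ST embryos (35.1 ± 12.1). Prim2 was highest in full-grown oocytes (56.2 ± 5.61) and zygotes (37.7 ± 3.56). Prim1 was the lowest of the 4 in control zygotes (6.697 ± 1.13). Pola1, the polymerase subunit, was lowest at P7 (7.13 ± 0.117), in full-grown oocytes (3.95 ± 0.451) and in ST embryos (9.67 ± 2.63), and Pola2 at 48 h (8.17 ± 2.38). For the clamp loader the ends in controls were Rfc4 (163 ± 41.1) and Rfc1 (45.5 ± 5.596) at P7. They were Rfc3 (99.7 ± 2.45) and Rfc1 (15.6 ± 1.005) in full-grown oocytes, and Rfc3 (67.4 ± 11.4) and Rfc2 (2.73 ± 0.198) in zygotes. At 48 h they were Rfc1 (40.3 ± 3.13) and Rfc5 (17.4 ± 1.31), and in ST embryos Rfc4 (149.9 ± 6.29) and Rfc1 (29.3 ± 4.36). Rrm2 stood above its partner Rrm1 in every control library, narrowly at P7 (30.03 and 25.1 against 22.5 and 23.4) and widely in ST embryos (444 and 459 against 65.2 and 61.5).

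**Figure D2:**
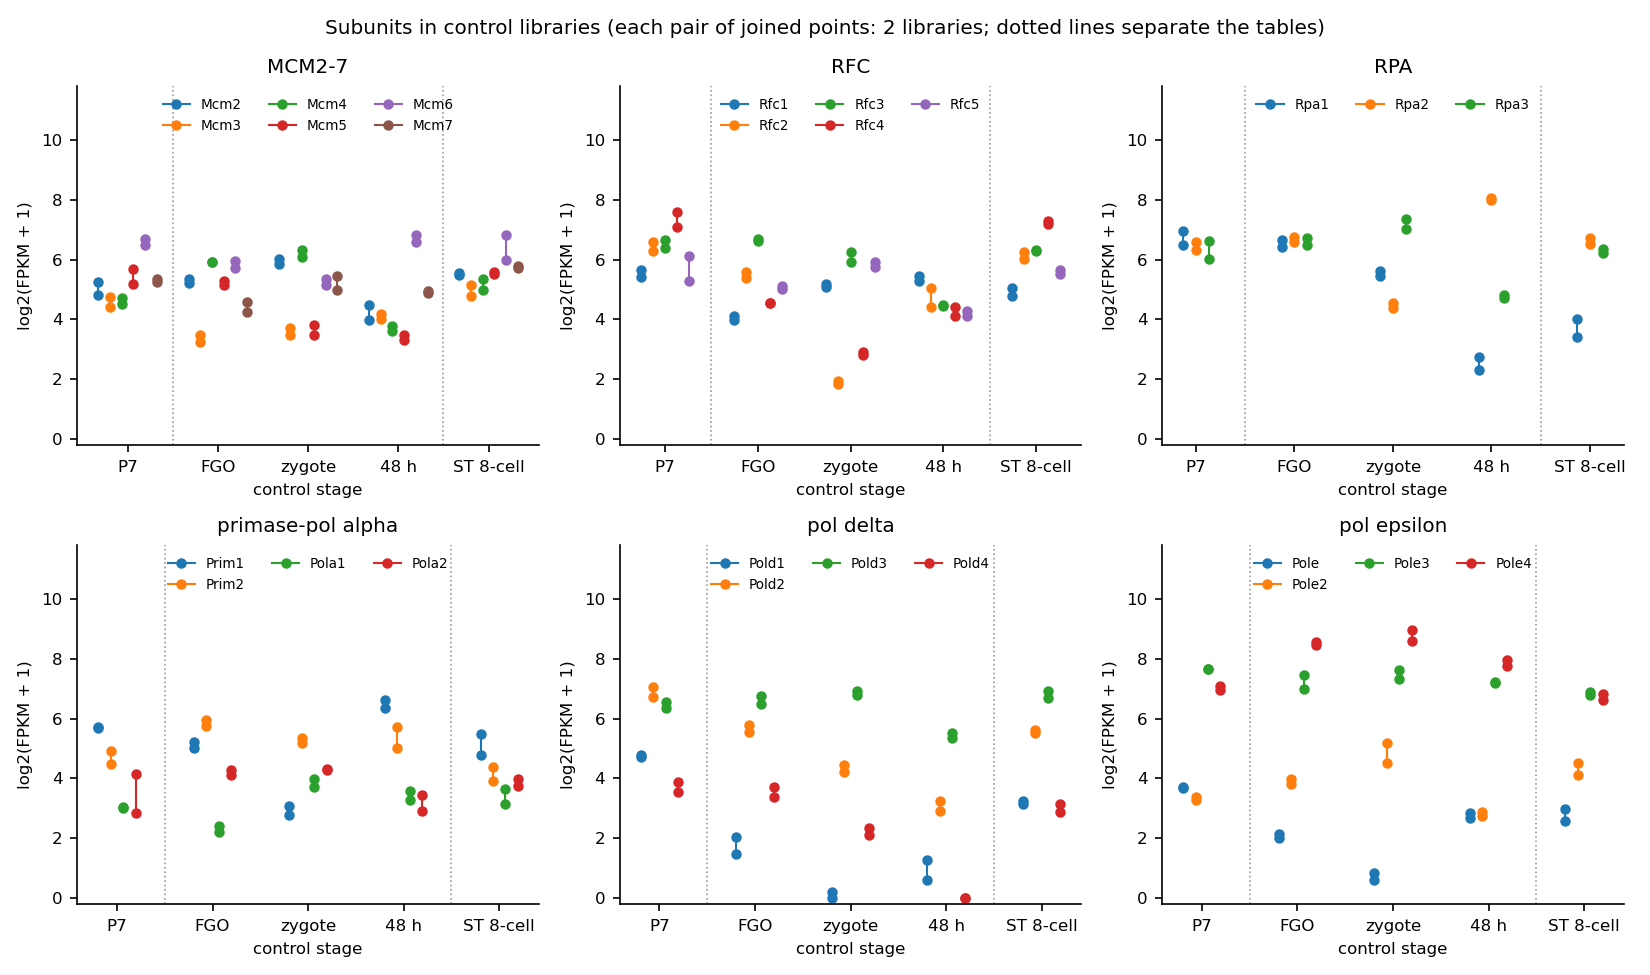
Levels of the subunits of 6 complexes in control libraries, as log2(FPKM + 1), by stage, with the 2 libraries of a group joined by a line and dotted lines between separately normalised tables. Rpa subunits lie together in full-grown oocytes and are spread over a ratio of 53.6 at 48 h, and Pold1 in zygotes and Pold4 at 48 h lie at or near 0.

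Transcripts of the Mcm2 to Mcm7 helicase genes and of Pcna were present at every stage. At P7 Mcm6 was highest (102 and 88.04 in controls and 92.9 and 81.3 in the knockout) and Mcm3 lowest (26.1 and 20.1 in controls and 15.3 and 19.1 in the knockout). Mcm2 stood at 27.5 and 37.4 in controls and 37.3 and 43.8 in the knockout, and Mcm4 at 21.9 and 24.98 in controls and 28.7 and 26.7 in the knockout. Mcm5 stood at 50.3 and 35.7 in controls and 45.1 and 44.5 in the knockout, and Mcm7 at 39.8 and 37.4 in controls and 31.6 and 25.2 in the knockout. None of these 6 genes passed at P7. In full-grown oocytes the control libraries held Mcm2 at 36.2 and 39.8, Mcm3 at 8.403 and 10.2, Mcm4 at 59.01 and 59.7, Mcm5 at 34.8 and 37.9, Mcm6 at 51.04 and 60.3 and Mcm7 at 18.04 and 23.1. The knockout oocytes held 18.5 and 27.4, 5.59 and 7.51, 66.1 and 72.5, 32.9 and 42.6, 29.8 and 42.8 and 9.62 and 12.5 in the same order, and none of the 6 passed. In ST embryos the libraries labelled Setd2+/- had 45.6 and 43.9 for Mcm2, 34.5 and 26.7 for Mcm3, 40.2 and 30.6 for Mcm4, 46.5 and 44.7 for Mcm5, 111 and 61.9 for Mcm6 and 54.2 and 51.2 for Mcm7. The ST libraries labelled Setd2-/- had 37.3 and 35.1, 27.6 and 24.3, 31.3 and 22.5, 32.4 and 34.5, 73.8 and 78.2 and 46.6 and 62.4 in that order. Pcna encodes the sliding clamp that holds the polymerases on DNA. At P7 it stood at 70.3 and 61.96 in controls and 68.5 and 78.5 in the knockout. Full-grown oocytes had 78.9 and 84.3 in controls and 86.4 and 81.8 in the knockout, and zygotes 107 and 121 in controls and 101 and 78.3 in the knockout. Embryos of 48 h had 67.2 and 64.5 in controls and 61.7 and 59.2 in the knockout, and ST embryos 52.4 and 48.2 under the label Setd2+/- and 50.5 and 43.2 under Setd2-/-.

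FPKM is a share of each library's RNA, so a lower share and less RNA per cell cannot be told apart. Whether a transcript was captured equally well at each stage was not tested, so rises and falls are those of the measured share. From full-grown oocyte to zygote in controls, 12 of the 51 genes rose and 15 fell, against 18.5% of all genes tested rising and 24% falling. Changes are log2 of (FPKM + 1) relative to the median change of all genes tested in that comparison. Each adjusted p is from limma's test of the unshifted change, so a gene can pass with a small relative change. The genes' median relative change was 0.00. The largest fall was in the clamp loader: Rfc2 went from 40.7 and 47.4 to 2.59 and 2.87 (log2 -3.53, SE 0.38, adjusted p = 6.78e-05), with the libraries of the stages far apart. Rfc4 went from 22.4 and 22.6 to 6.47 and 6.02 (log2 -1.64, SE 0.20, adjusted p = 0.000146). Rfc1, the largest subunit of the loader, rose from 14.9 and 16.3 to 35.6 and 32.7 (log2 1.14, SE 0.24, adjusted p = 0.00495), and Rfc5 rose from 31.7 and 33.6 to 52.9 and 59.01 (log2 0.82, SE 0.24, adjusted p = 0.0247). Rfc2 shares 952 nt of exon with Lat2 and Rfc4 shares 186 nt with Eif4a2, both on the other strand. Lat2 stood at 0.129 and 0.155 FPKM in control oocytes and at 0 in control zygotes. Eif4a2 stood at 52.4 and 60.8 and then 82.7 and 78.4, and the part of either neighbour was not tested.

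Prim1 fell from 31.7 and 35.9 to 7.49 and 5.9 (log2 -2.12, SE 0.26, adjusted p = 0.000126) and Rpa2 from 95.1 and 107 to 19.8 and 22.6 (log2 -2.14, SE 0.27, adjusted p = 0.000172). The helicase activators Gins2 (log2 -1.55, adjusted p = 0.00141) and Gins4 (log2 -1.37, adjusted p = 0.00321) fell, as did Mcm5 (log2 -1.52, adjusted p = 0.00195) and Fen1 (log2 -1.55, adjusted p = 0.00786). Tmem258, which shares 75 nt of exon with Fen1, went from 440 and 491 to 62.1 and 56.7 FPKM, and its part was not tested. Fen1 also shares 1909 nt with Gm10143 on the other strand, which is not listed under that symbol. Falls were called for the polymerase subunits Pole (log2 -1.28, adjusted p = 0.00168), Pold1 (log2 -1.58, adjusted p = 0.00603), Pold2 (log2 -1.27, adjusted p = 0.00198) and Pold4 (log2 -1.28, adjusted p = 0.00388). Gins1, Orc1 and Rpa1 were the other 3 that fell. Pola1 had the largest rise, from 3.63 and 4.26 to 12.2 and 14.9 (log2 1.61, SE 0.26, adjusted p = 0.000936). Orc6 rose from 107 and 116 to 225 and 264 (log2 1.18, SE 0.20, adjusted p = 0.00147). The kinase pair Dbf4 (log2 1.23, adjusted p = 0.00318) and Cdc7 (log2 0.83, adjusted p = 0.0466) rose too. The remaining rises were Rrm2 (log2 0.90, adjusted p = 0.00603), Top2a (log2 0.96, adjusted p = 0.0117) and Cdc45 (log2 0.71, adjusted p = 0.0158), together with Pole2 (log2 1.01, adjusted p = 0.0269), Mcm7 (log2 0.87, adjusted p = 0.0262) and Mcm2 (log2 0.72, adjusted p = 0.0424). Rises and falls lay side by side in the clamp loader, the origin recognition complex, the helicase ring, primase with polymerase alpha, and polymerase epsilon. All called genes of GINS, polymerase delta and Rpa fell, with Gins3, Pold3 and Rpa3 not past the test. Quantile normalisation turned the split to 21 higher and 13 lower, and without control full-grown oocyte library 2 the calls numbered 16. Calls of Cdc45, Cdc7, Fen1, Mcm2, Mcm7, Pold1, Pole2, Rfc5 and Top2a were lost in at least 1 alternative with a library left out.

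The next step in controls, zygote to 2-cell embryo at 48 h, was the largest of the steps tested for these genes: 15 rose and 20 fell, and the median absolute change was 1.16 on the log2 scale. Of all genes tested, 33.4% rose and 42.7% fell, so the members' counts were near the background, and with median-ratio rescaling the members split into 20 higher and 15 lower. The median of all genes lay at -0.34 before the shift. Single-strand binding shows the size of the individual moves. Rpa2 went from 19.8 and 22.6 FPKM to 264 and 254 (log2 3.89, SE 0.27, adjusted p = 4.44e-07). Rpa1 went from 48.3 and 42.9 to 5.74 and 3.92 (log2 -2.68, SE 0.28, adjusted p = 1.81e-06), and Rpa3 went from 129 and 164 to 27.3 and 25.5 (log2 -2.08, SE 0.23, adjusted p = 2.09e-06). No library of one stage came near those of the other for any of the 3.

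Prim1 rose from 7.49 and 5.9 to 80.8 and 96.7 (log2 3.88, SE 0.26, adjusted p = 2.63e-07), and Pole from 0.5304 and 0.798 to 5.35 and 6.12 (log2 2.36, SE 0.25, adjusted p = 1.84e-05). The other polymerase genes that passed fell: Pold4 from 4.06 and 3.27 to 0 in both libraries (adjusted p = 2.85e-05). In control zygotes the Pold4 levels rest on about 12 and 8 fragments and the Pole levels on about 14 and 19. With Pold4 fell Pold3 (log2 -1.07, adjusted p = 2.5e-05), Pole2 (log2 -1.69, adjusted p = 9.13e-05), Pole4 (log2 -0.59, adjusted p = 0.000762), Pold2 and Pola2. Orc5 had the largest fall, from 276 and 379 to 24.3 and 21.04 (log2 -3.44, SE 0.23, adjusted p = 7.29e-08). Orc2 went from 25.97 and 25.1 to 41.04 and 41.7 and Orc4 from 38.1 and 52.9 to 77.3 and 88.3, both called as rises. Orc2 shares 686 nt with Nif3l1, which stood at 10.1 and 13.6 and then 37.05 and 35.6 FPKM and so was higher beside it, and its part was not tested. In the helicase ring Mcm4 fell from 66.2 and 78.8 to 12.7 and 11.3 (log2 -2.16, SE 0.19, adjusted p = 3.29e-07). Mcm2 fell from 64.4 and 57.4 to 14.8 and 21.1 (log2 -1.38, SE 0.24, adjusted p = 4.63e-05). Mcm6, in contrast, rose from 34.1 and 39.3 to 94.4 and 112 (log2 1.80, SE 0.23, adjusted p = 0.000123). Mcm3 (12.03 and 10.1, then 17.2 and 14.998), Mcm5 (12.96 and 10.2, then 8.93 and 10.04) and Mcm7 (43.2 and 30.9, then 28.8 and 30.2) did not pass.

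The licensing inhibitor Gmnn rose from 214 and 227 to 924 and 1035 (log2 2.48, SE 0.21, adjusted p = 3.31e-06). Its target Cdt1 stood at 84.8 and 62.1 in control zygotes and 46.5 and 54.4 at 48 h and did not pass. Cdc45 rose from 69.7 and 89.6 to 206 and 219 (log2 1.75, SE 0.18, adjusted p = 2.91e-05). Gins3 rose from 6.06 and 6.97 to 62.8 and 45.003 (log2 3.19, SE 0.24, adjusted p = 8.72e-07), and Gins4 from 36.1 and 38.2 to 124 and 137 (log2 2.12, SE 0.30, adjusted p = 0.0002). Mcm10, which helps to switch the helicase on, fell (log2 -0.82, adjusted p = 0.000651). Both ribonucleotide reductase genes rose, Rrm2 from 77.8 and 95.1 to 232 and 239 (log2 1.78, SE 0.20, adjusted p = 4.47e-05) and Rrm1 from 7.12 and 10.3 to 25.6 and 20.2. Top2a rose from 13.4 and 15.9 to 75.5 and 59.4 (log2 2.46, SE 0.24, adjusted p = 9.51e-06). In the loader Rfc2 (log2 3.18, adjusted p = 3.65e-05) and Rfc4 (log2 1.75, adjusted p = 6.93e-05) rose. Rfc3 (log2 -1.28, adjusted p = 4.72e-05) and Rfc5 (log2 -1.29, adjusted p = 7.19e-05) fell, and Rfc1 did not pass. Lat2, the neighbour of Rfc2, also went from 0 in control zygotes to 10.2 and 6.15 FPKM, and its part in the Rfc2 value was not tested. The remaining falls were Gins2, Lig1, Mcm8, Mcm9, Orc3 and Pcna, with relative changes from -0.85 in Mcm9 to -0.44 in Pcna. Asf1a, which shares 957 nt of exon with Mcm9, went from 124 and 157 to 19.8 and 16.7 FPKM, and its part was not tested.

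Start-site sequences of genes with large 2-cell changes in either direction are shown so that their short promoter elements can be compared. The genes were picked after their values were seen, and not by the size of the change alone. The sequences are the 200 bases before the start site, written 5′ to 3′ on the gene's strand, from RefSeq on GRCm38.p6 (the tables were made on mm9, and no position was converted). Capitals mark CCAAT (or its reverse complement ATTGG) and 4 words of the E2F site, TTTCCCGC, TTTCGCGC, TTTGCCGC and TTTGGCGC, searched on both strands. E2F is the transcription factor family known for driving S-phase genes, and CCAAT is bound by NF-Y. Rpa2, Prim1, Gins3, Top2a, Mcm6 and Rrm2 rose in control 2-cell embryos, and Orc5, Rpa1, Rpa3 and Rfc3 fell.
Rpa2, chr4:132768160-132768359, plus strand: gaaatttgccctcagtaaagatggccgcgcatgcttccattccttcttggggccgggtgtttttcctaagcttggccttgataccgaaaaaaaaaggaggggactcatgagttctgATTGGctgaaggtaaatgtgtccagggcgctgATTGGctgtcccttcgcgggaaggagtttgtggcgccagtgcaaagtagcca
Prim1, chr10:128015015-128015214, plus strand: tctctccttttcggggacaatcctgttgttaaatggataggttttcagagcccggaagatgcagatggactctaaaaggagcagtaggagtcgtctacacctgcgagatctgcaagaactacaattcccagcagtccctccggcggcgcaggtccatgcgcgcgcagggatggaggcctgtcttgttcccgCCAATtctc
Gins3, chr8:95633359-95633558, plus strand: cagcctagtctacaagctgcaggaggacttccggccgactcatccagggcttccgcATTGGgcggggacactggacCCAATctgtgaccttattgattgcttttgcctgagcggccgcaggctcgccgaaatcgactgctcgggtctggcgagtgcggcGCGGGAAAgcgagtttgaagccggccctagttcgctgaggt
Top2a, chr11:99024190-99024389, minus strand: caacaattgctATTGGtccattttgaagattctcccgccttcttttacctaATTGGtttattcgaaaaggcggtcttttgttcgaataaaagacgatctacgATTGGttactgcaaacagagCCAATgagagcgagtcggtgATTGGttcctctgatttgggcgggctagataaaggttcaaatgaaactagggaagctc
Mcm6, chr1:128359706-128359905, minus strand: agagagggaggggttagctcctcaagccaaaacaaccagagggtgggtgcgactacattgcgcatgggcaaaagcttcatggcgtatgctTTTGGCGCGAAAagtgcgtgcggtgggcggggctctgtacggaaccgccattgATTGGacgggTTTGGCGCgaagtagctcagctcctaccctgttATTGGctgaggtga
Rrm2, chr12:24708054-24708253, plus strand: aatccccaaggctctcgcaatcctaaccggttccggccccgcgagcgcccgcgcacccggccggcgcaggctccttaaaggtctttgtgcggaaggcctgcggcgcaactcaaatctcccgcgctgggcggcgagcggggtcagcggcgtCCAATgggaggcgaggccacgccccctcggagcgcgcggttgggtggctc
Orc5, chr5:22550339-22550538, minus strand: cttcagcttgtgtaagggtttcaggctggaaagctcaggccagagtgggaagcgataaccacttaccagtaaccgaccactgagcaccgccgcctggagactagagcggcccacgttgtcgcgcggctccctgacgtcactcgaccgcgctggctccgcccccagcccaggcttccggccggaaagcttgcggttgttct
Rpa1, chr11:75348384-75348583, minus strand: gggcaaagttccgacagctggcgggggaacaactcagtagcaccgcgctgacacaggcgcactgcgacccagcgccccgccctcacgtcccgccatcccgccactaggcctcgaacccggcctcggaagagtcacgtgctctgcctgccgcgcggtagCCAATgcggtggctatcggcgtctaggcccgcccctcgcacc
Rpa3, chr6:8259142-8259341, minus strand: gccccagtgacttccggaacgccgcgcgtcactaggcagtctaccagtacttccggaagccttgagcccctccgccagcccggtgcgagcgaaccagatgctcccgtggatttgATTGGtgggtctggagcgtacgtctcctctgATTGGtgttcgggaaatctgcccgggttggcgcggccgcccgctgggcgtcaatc
Rfc3, chr5:151651209-151651408, minus strand: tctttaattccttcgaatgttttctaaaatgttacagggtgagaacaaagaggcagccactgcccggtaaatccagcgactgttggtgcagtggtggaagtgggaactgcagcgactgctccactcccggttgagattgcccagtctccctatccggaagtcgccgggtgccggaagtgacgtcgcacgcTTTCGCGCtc

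Top2a carries 5 CCAAT elements in this window, and Rpa2, Gins3 and Mcm6 carry 2 each, and Prim1 and Rrm2 carry 1 each. Of the genes shown that fell, Orc5 and Rfc3 carry none, Rpa1 carries 1 and Rpa3 carries 2, so the element is found on both sides. Pold4, Pole2, Mcm2 and Rfc5 fell by more than Rfc3 and are not shown. In the same window Pold4 carries 2, Mcm2 carries 1, and Pole2 and Rfc5 carry none. Promoters of 43 of the 51 genes were matched, taken from 250 bases before to 50 after the start. In these longer windows an E2F word was found for 17 of 43 members (39.5%), against 2.6% of 27025 genes in the reference table. CCAAT was found for 27 of 43 (62.8%), against 41.1% of all genes, and TTTGAA, the core of the CHR element of late cell-cycle genes, for 8 of 43 (18.6%), against 20.2%. Of the 11 matched genes that rose in control 2-cell embryos, 10 held CCAAT (90.9%) and 2 an E2F word (18.2%). Of the 18 matched genes that fell, 10 held CCAAT (55.6%) and 7 an E2F word (38.9%), and of the 14 that did not pass, 7 (50%) and 8 (57.1%). The match is a description of letters, with no test and no evidence of binding. Words that overlap, as E2F words on the 2 strands can, are printed as 1 run of capitals, and a gene with several start sites was counted once.

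In the knockout the same interval gave no call. From zygote to 48 h none of the 51 genes passed limma's test in either direction (8 at an unadjusted p under 0.05). This stood beside 0.139% of all genes higher and 0.0656% lower (1240 of 12199 at an unadjusted p under 0.05). The median absolute change was 0.223 on the log2 scale against 1.16 in controls, and 0 of 51 genes changed by over 1 on that scale against 28 in controls. Across the 51 genes the changes of the genotypes had a Pearson r of 0.09 and a Spearman rho of 0.07, a description over genes of the same libraries. Nearest to passing were Mcm9 (log2 0.71, adjusted p = 0.397), Gins2 (log2 0.68, adjusted p = 0.446) and Orc4 (log2 0.39, adjusted p = 0.627) on the higher side. On the lower side they were Rrm2 (log2 -0.69, adjusted p = 0.279), Pcna (log2 -0.57, adjusted p = 0.349) and Pole (log2 -0.68, adjusted p = 0.403). Without knockout zygote library 2 the count was 1.

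**Figure D3:**
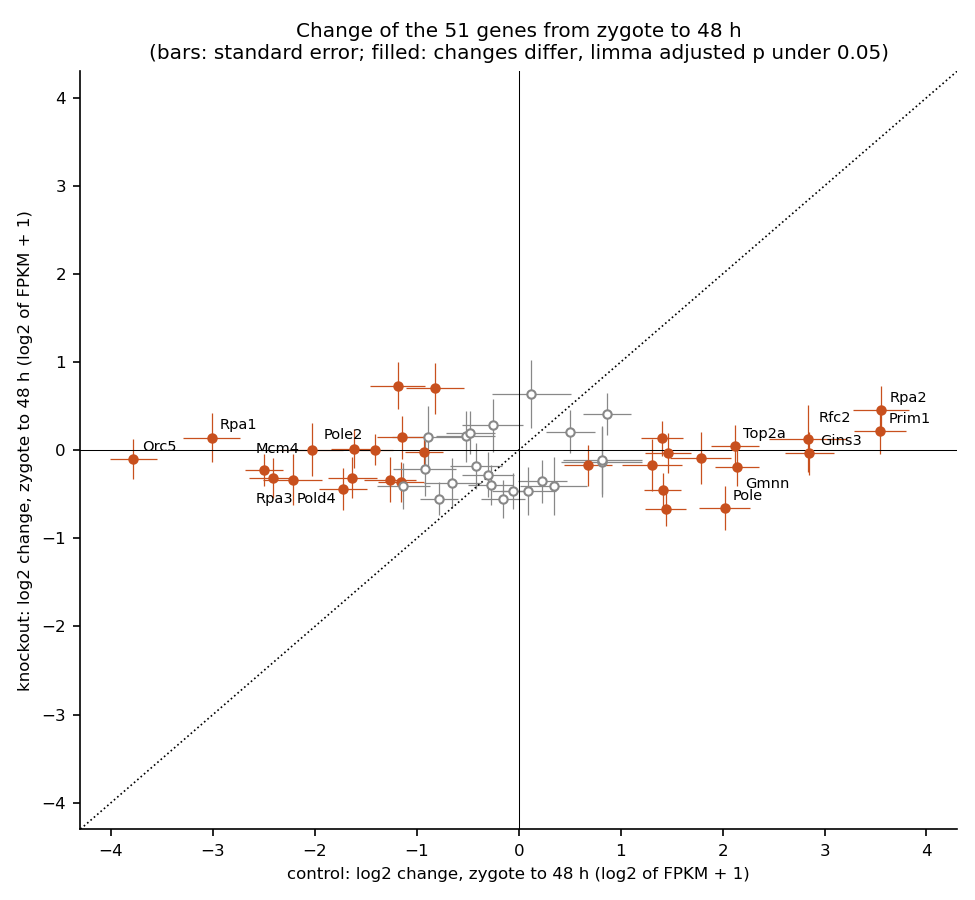
Change of the 51 genes from zygote to 48 h, in log2(FPKM + 1) and not shifted by the median of all genes, for control embryos on the horizontal axis and knockout embryos on the vertical axis, with standard errors. Control changes run from -3.78 to 3.55 and knockout changes from -0.67 to 0.73, so that the points lie along the horizontal axis and not along the dotted line of equal change.

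A test of the difference between the genotypes in this step called 30 genes, 16 with a higher and 14 with a lower change in the knockout. Of all genes 36.7% and 29.5% were called in these directions (for the members, 13 and 21 with median-ratio rescaling). The smallest adjusted p belonged to Orc5 (log2 3.32, SE 0.32, adjusted p = 3.39e-06), Rpa1 (log2 2.79, SE 0.39, adjusted p = 4.04e-05) and Mcm4 (log2 1.91, SE 0.26, adjusted p = 2.32e-05) among the higher. Among the lower it belonged to Prim1 (log2 -3.69, SE 0.36, adjusted p = 1.47e-05), Rpa2 (log2 -3.46, SE 0.39, adjusted p = 4.16e-05) and Gins3 (log2 -3.25, SE 0.34, adjusted p = 2.66e-05). Knockout embryos at 48 h held Orc5 at 434 and 295 FPKM, where knockout zygotes had 418 and 352. Prim1 was at 13.4 and 16.9 after 9.99 and 16.3, Rpa2 at 60.1 and 83.9 after 37.7 and 70.8, and Gins3 at 11.9 and 10.3 after 12.9 and 10.1. The knockout libraries of 48 h overlapped in range with those of the knockout zygote in each of these 4 genes. The median of all genes lay at 0.36 before the shift. The controls of this test are those of the control step, so its values are not independent of it.

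**Figure D4:**
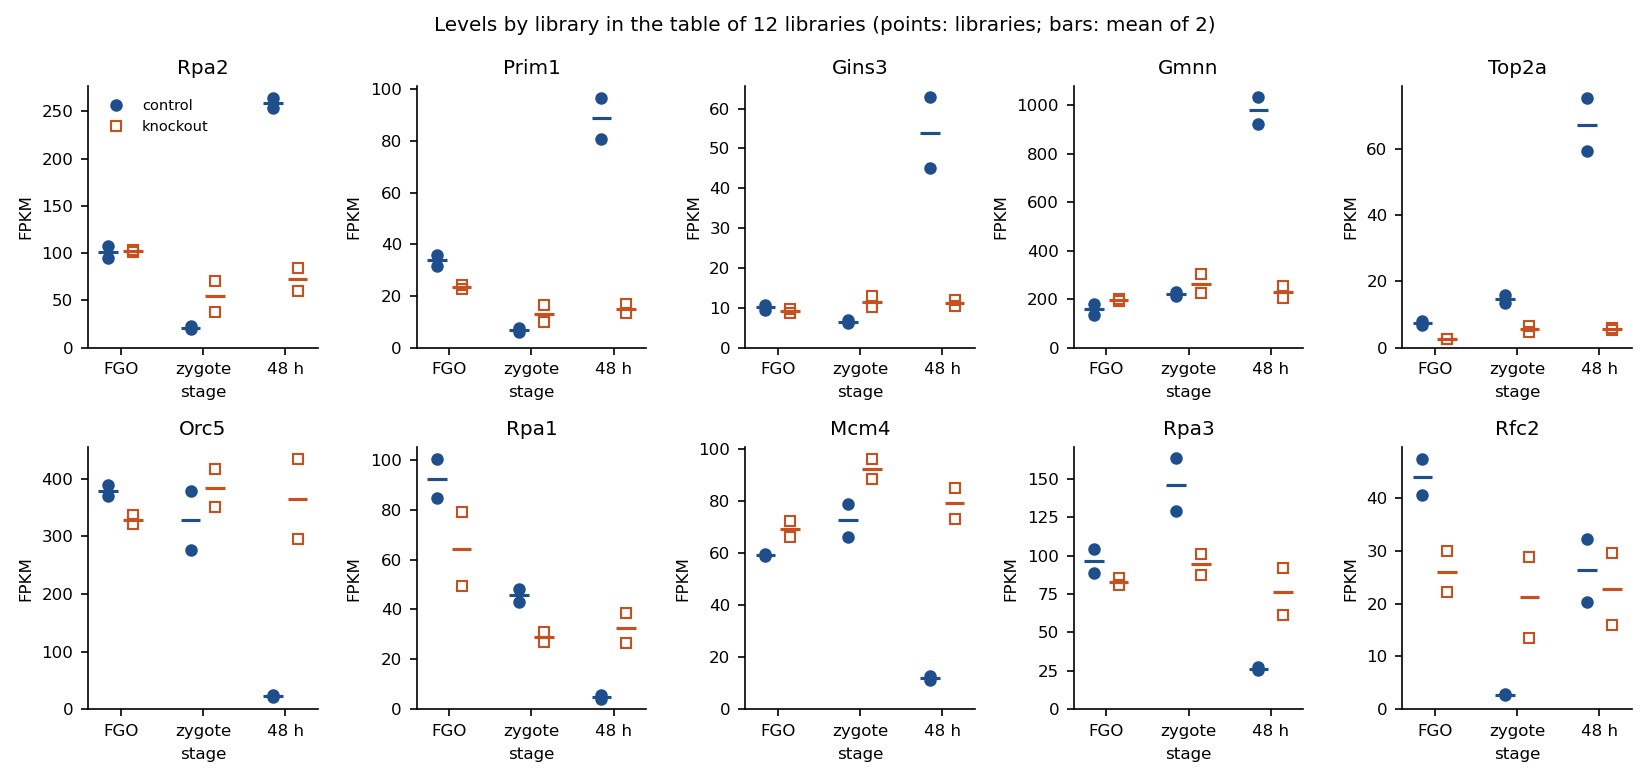
FPKM of 10 genes in full-grown oocytes, zygotes and 48 h embryos, with a point for each library and a bar for the mean of 2 (filled circles, control; open squares, knockout). In the control 2-cell libraries Rpa2, Prim1, Gins3, Gmnn and Top2a lie above all other libraries shown and Orc5, Rpa1, Mcm4 and Rpa3 below them, whereas Rfc2 is low in control zygotes, at 2.59 and 2.87 FPKM.

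Knockout against control at 48 h, which compares 1-cell with 2-cell embryos, gave 17 genes higher and 13 lower in the knockout. Of all genes 43.2% were higher and 30.6% lower, so the share called was not above the background, and the split became 14 and 20 with median-ratio rescaling. The median of all genes lay at 0.43 on the log2 scale before the shift (0.09 with median-ratio rescaling), and the members' median lay 0.13 below it. The lowest relative to control was Top2a, at 75.5 and 59.4 in controls and 5.47 and 5.83 in the knockout (log2 -3.79, SE 0.24, adjusted p = 3.06e-07). Rrm2 stood at 232 and 239 in controls and 52.3 and 44.2 in the knockout (log2 -2.70, SE 0.20, adjusted p = 1.44e-06). Rrm1 was lower too (log2 -2.35, adjusted p = 0.000118), so that both genes of the reductase were lower. Gmnn was 924 and 1035 in controls and 204 and 256 in the knockout (log2 -2.53, SE 0.21, adjusted p = 4.92e-06). Cdc45 was 206 and 219 in controls and 51.4 and 56.2 in the knockout (log2 -2.39, SE 0.18, adjusted p = 2.55e-06). Prim1 (log2 -2.91, adjusted p = 5.36e-06), Gins3 (log2 -2.60, adjusted p = 9.74e-06), and Pole (log2 -2.60, adjusted p = 1.25e-05) were lower. Rpa2 (log2 -2.28, adjusted p = 9.46e-05), Rfc1 (log2 -2.20, adjusted p = 5.38e-05), Orc2 (log2 -1.53, adjusted p = 0.00138) and Mcm6 (log2 -1.45, adjusted p = 0.00185) were lower as well, as was Gins4. For Top2a, Rrm2, Gmnn and Cdc45 the libraries of the genotypes did not come near each other.

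The genes higher in the knockout at 48 h were led by Orc5, at 24.3 and 21.04 in controls and 434 and 295 in the knockout (log2 3.49, SE 0.23, adjusted p = 6.58e-08). Gm15421, which shares 90 nt of exon with Orc5, stood at 18.4 and 22.4 in controls and 27.2 and 71.9 in the knockout, and its part was not tested. Mcm4 followed with 12.7 and 11.3 in controls and 73.1 and 85.02 in the knockout (log2 2.19, SE 0.19, adjusted p = 2.78e-07). Rpa1 came next with 5.74 and 3.92 in controls and 38.4 and 26.5 in the knockout (log2 2.08, SE 0.28, adjusted p = 9.48e-06). Of the 4 polymerase delta genes 3 were higher: Pold4 (0 and 0 in controls and 3.805 and 3.19 in the knockout, adjusted p = 4.03e-05), Pold2 (log2 1.34, adjusted p = 7.33e-05) and Pold3 (log2 0.60, adjusted p = 0.000329). No fold is given for Pold4 because its controls are listed at 0, and its knockout levels rest on about 15 and 13 fragments. Rfc3 (log2 1.44, adjusted p = 1.76e-05), Mcm10 (log2 1.07, adjusted p = 0.000108), and Rpa3 (log2 1.04, adjusted p = 0.000127) passed. Pole4 (log2 0.60, adjusted p = 0.000399), Mcm9 (log2 1.01, adjusted p = 0.000504) and Gins2 (log2 0.97, adjusted p = 0.00102) passed too, and the other 5 were Cdc7, Mcm2, Mcm5, Orc1 and Rfc5. Asf1a, whose exons overlap those of Mcm9 over 957 nt, stood at 19.8 and 16.7 in controls and 156 and 117 in the knockout. Gse1, beside Gins2, stood at 2.73 and 1.69 in controls and 11.9 and 12.8 in the knockout, so both neighbours moved the same way and their part was not tested. Among the helicase genes Mcm2 stood at 14.8 and 21.1 in controls and 34.1 and 32.3 in the knockout, and Mcm5 at 8.93 and 10.04 in controls and 22.7 and 25.9 in the knockout, both called higher. Mcm6 stood at 94.4 and 112 in controls and 51.05 and 49.4 in the knockout. Mcm3 was at 17.2 and 14.998 in controls and 10.4 and 11.7 in the knockout and Mcm7 at 28.8 and 30.2 in controls and 23.4 and 15.8 in the knockout, and neither passed. Summed FPKM of 11 oocyte markers was 5645 to 5892 in control 48 h libraries and 18568 to 22561 in the knockout. Dppa3 made up most of the control sums, at 5408 and 5659, and was lower in the knockout, at 4616 and 3939. Each of the other markers was higher in the knockout. Zp3, for example, stood at 98.7 and 108 in controls and 2627 and 1997 in the knockout. All these differences between the genotypes share the control 48 h libraries with the control step above.

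In zygotes, where both genotypes were at the 1-cell stage, 11 genes were higher and 5 lower in the knockout, against 18.5% higher and 13.1% lower among all genes (9 and 11 with quantile normalisation). The members' median lay at the median of all genes. The largest differences were in Rfc2 and Rfc4 of the clamp loader. Rfc2 stood at 2.59 and 2.87 in controls and 13.5 and 28.9 in the knockout (log2 2.47, SE 0.38, adjusted p = 0.000998). Rfc4 stood at 6.47 and 6.02 in controls and 21.2 and 25.1 in the knockout (log2 1.72, SE 0.20, adjusted p = 0.000239). Rfc1 was lower at 35.6 and 32.7 in controls and 17.9 and 11.78 in the knockout (log2 -1.19, SE 0.24, adjusted p = 0.00492). The genotypes did not overlap in any of the 3. Lat2 was at 0 in all 4 zygote libraries. Eif4a2 stood at 82.7 and 78.4 in control zygotes and 58.5 and 42.99 in the knockout, and the part of either neighbour was not tested.

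Orc1 was higher in the knockout zygotes, at 25.5 and 35.2 in controls and 81.9 and 79.8 in the knockout (log2 1.39, SE 0.21, adjusted p = 0.00096). Rpa2 stood at 19.8 and 22.6 in controls and 37.7 and 70.8 in the knockout (log2 1.24, SE 0.27, adjusted p = 0.00662). Both primase genes were higher. Prim2 stood at 40.2 and 35.2 in controls and 72.9 and 79.1 in the knockout (log2 0.98, SE 0.27, adjusted p = 0.0187). Prim1 stood at 7.49 and 5.9 in controls and 9.99 and 16.3 in the knockout (log2 0.83, SE 0.26, adjusted p = 0.0273). Gins4 (log2 1.04, adjusted p = 0.0203), Gins3 (log2 0.71, adjusted p = 0.0404), Mcm10 (log2 0.69, adjusted p = 0.0364), Pold2 (log2 0.82, adjusted p = 0.0284) and Fen1 (log2 1.24, adjusted p = 0.0343) were the other higher genes. Top2a was lower at 13.4 and 15.9 in controls and 6.41 and 4.61 in the knockout (log2 -1.29, SE 0.24, adjusted p = 0.00309). Pole2 was lower at 21.6 and 35.7 in controls and 12.1 and 6.79 in the knockout (log2 -1.52, SE 0.31, adjusted p = 0.00443). Mcm8, a helicase relative known for its role in homologous recombination, was lower at 7.89 and 6.51 in controls and 2.66 and 2.64 in the knockout (log2 -1.18, SE 0.25, adjusted p = 0.0058). The ligase Lig1 was lower too (log2 -1.09, adjusted p = 0.0399). None of the 9 licensing genes passed, the helicase genes among them. Mcm2 had 64.4 and 57.4 in controls and 47.5 and 43.1 in the knockout, and Mcm3 12.03 and 10.1 in controls and 8.22 and 10.8 in the knockout. Mcm4 had 66.2 and 78.8 in controls and 96.3 and 88.3 in the knockout, and Mcm5 12.96 and 10.2 in controls and 13.8 and 28.2 in the knockout. Mcm6 had 34.1 and 39.3 in controls and 45.1 and 58.6 in the knockout, and Mcm7 43.2 and 30.9 in controls and 23.5 and 23.7 in the knockout. The count fell to 9 without control library 1, 8 without control library 2 and 9 without knockout library 2, and was 17 without knockout library 1. Fen1, Gins3, Gins4, Lig1, Mcm10, Pold2, Prim1 and Prim2 lost their call with a library left out, and Mcm8, Orc1, Pole2, Rfc1, Rfc2, Rfc4, Rpa2 and Top2a kept it in every alternative. In Rfc2, Rpa2, Gins4 and Fen1 knockout library 2 stood well above knockout library 1. Tmem258, which shares 75 nt of exon with Fen1, was likewise high in that library, at 64.1 and 196 FPKM in the knockout against 62.1 and 56.7 in controls, and its part was not tested. Members higher in the knockout had a median transcript of 2447 nt, those lower 3397 nt and those that did not pass 3381 nt, and the part of length was not tested. Summed oocyte markers were 9870 to 9993 FPKM in control and 19148 to 20953 in knockout zygotes, and their part was not tested. Single markers differed. Bmp15 went the other way, at 1294 and 1711 in controls and 1036 and 998 in the knockout, and Dppa3 and Ooep overlapped between genotypes. The rest were higher in the knockout, some unevenly, such as Zp3 at 1103 and 2534 in the knockout against 166 and 159 in controls.

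Full-grown knockout oocytes had 3 genes lower and none higher, against 4.89% lower and 2.02% higher among all genes, whose median lay 0.19 below 0 before the shift. Top2a stood at 6.84 and 7.95 in controls and 2.72 and 2.498 in the knockout (log2 -1.03, SE 0.24, adjusted p = 0.0183). Rfc1 stood at 14.9 and 16.3 in controls and 6.53 and 8.32 in the knockout (log2 -0.80, SE 0.24, adjusted p = 0.0374). Mcm8 stood at 5.34 and 4.097 in controls and 1.86 and 2.099 in the knockout (log2 -0.74, SE 0.25, adjusted p = 0.0473). The genotypes did not overlap in any of these genes. All 3 are also lower in knockout zygotes, from other libraries. Each of the 3 calls was lost when any 1 of the 4 oocyte libraries was left out, and under quantile normalisation. On the higher side the smallest p belonged to Orc1 at 44.4 and 46.8 in controls and 59.7 and 71.6 in the knockout (log2 0.70, adjusted p = 0.167). Then came Dbf4 at 67.6 and 83.8 in controls and 109 and 113 in the knockout (log2 0.74, adjusted p = 0.19), and Pole4 at 375 and 352 in controls and 493 and 443 in the knockout (log2 0.55, adjusted p = 0.255). None of them passed.

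From full-grown oocyte to zygote in the knockout 8 genes rose and 4 fell, against 12.6% and 5.1% of all genes, and both rescalings turned the split to 5 and 6. Rises were called for Pola1 (log2 1.09, adjusted p = 0.0124), Mcm7 (log2 0.95, adjusted p = 0.0203), Mcm2 (log2 0.89, adjusted p = 0.0191), and Mcm10 (log2 0.89, adjusted p = 0.0153). They were also called for Pole3 (log2 0.88, adjusted p = 0.0152), Rfc1 (log2 0.80, adjusted p = 0.0302), Top2a (log2 0.75, adjusted p = 0.0357) and Orc6 (log2 0.61, adjusted p = 0.0377). Falls were called for Gins2 (log2 -1.47, adjusted p = 0.0104), Rpa1 (log2 -1.18, adjusted p = 0.0229), Rpa2 (log2 -1.05, adjusted p = 0.0344) and Prim1 (log2 -0.92, adjusted p = 0.0466). The count was 1 without knockout oocyte library 1, 3 without knockout oocyte library 2, 1 without knockout zygote library 1 and 19 without knockout zygote library 2, and each of the 12 calls was lost in at least 1 of these.

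The difference between the genotypes in the oocyte-to-zygote step was called for 4 genes, all with a higher change in the knockout, beside 8.29% of all genes higher and 1.1% lower. Rfc2 (log2 3.03, SE 0.54, adjusted p = 0.00568) went from 22.2 and 29.9 to 13.5 and 28.9 in the knockout, where the control fell to 2.59 and 2.87. Rfc4 (log2 1.59, SE 0.29, adjusted p = 0.00509) stood at 20.3 and 23.2 in knockout oocytes and 21.2 and 25.1 in knockout zygotes, against 22.4 and 22.6 and then 6.47 and 6.02 in controls. Prim1 (log2 1.16, adjusted p = 0.0404) and Pold2 (log2 1.12, adjusted p = 0.0445) made up the rest. The call of Rfc4 was kept in every alternative, and that of Rfc2 in all but the fit with no filter on low values. Calls numbered 2 without either control oocyte library, knockout oocyte library 1, either control zygote library or knockout zygote library 2, where Prim1 and Pold2 lost theirs, and 10 without knockout zygote library 1.

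Growing oocytes and ST embryos gave no call. At P7 none of the 51 genes passed limma's test (4 at an unadjusted p under 0.05), beside 0.0741% of all genes higher and 0.00926% lower (868 of 10794 at an unadjusted p under 0.05). The smallest p on the higher side belonged to Rpa3, at 63.4 and 98.3 in controls and 119.9 and 144 in the knockout (log2 0.77, adjusted p = 0.362). Next were Orc5 at 107 and 114 in controls and 136 and 169 in the knockout (log2 0.49, adjusted p = 0.539), and Cdc45 at 17.8 and 16.2 in controls and 25.4 and 24.98 in the knockout (log2 0.58, adjusted p = 0.591). On the lower side it belonged to Mcm8 at 28.7 and 23.9 in controls and 16.4 and 18.3 in the knockout (log2 -0.53, adjusted p = 0.579), Mcm7 (log2 -0.40, adjusted p = 0.653) and Orc1 (log2 -0.36, adjusted p = 0.672). In ST 8-cell embryos none passed (7 at an unadjusted p under 0.05), and 0% of all genes were called higher or lower (1243 of 9398 at an unadjusted p under 0.05). The nearest were Orc5 at 34.9 and 53.5 under the label Setd2+/- and 64.99 and 83.4 under Setd2-/- (log2 0.83, adjusted p = 0.327) and, also higher, Mcm9 (log2 0.83, adjusted p = 0.422) and Top2a (log2 0.59, adjusted p = 0.427). On the lower side they were Pold4 (log2 -1.10, adjusted p = 0.295), Pold2 (log2 -0.65, adjusted p = 0.3) and Mcm8 at 6.598 and 7.29 under the label Setd2+/- and 3.51 and 1.29 under Setd2-/- (log2 -1.23, adjusted p = 0.31). The lack of calls does not show that the groups are alike.

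**Figure D5:**
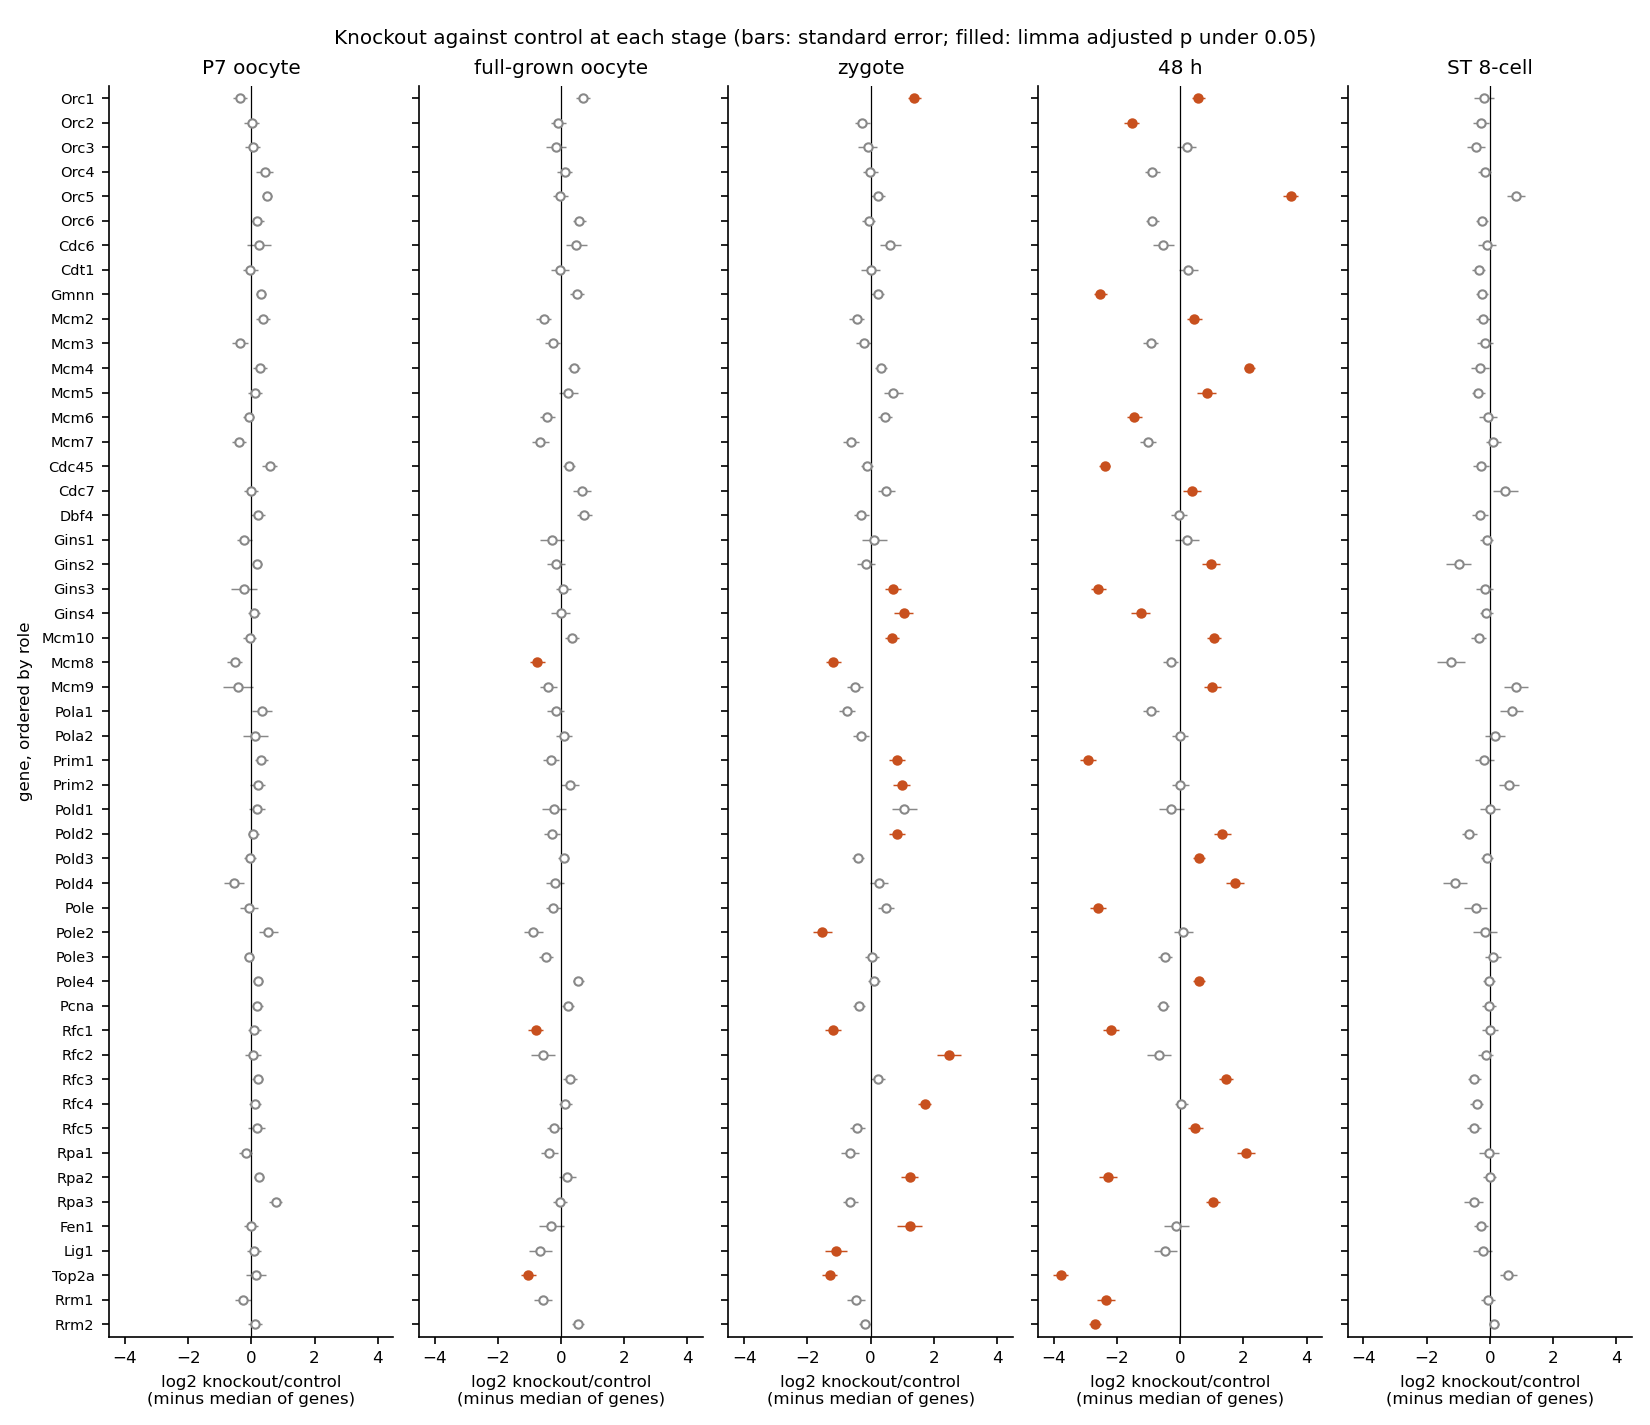
Knockout against control for each of the 51 genes at 5 stages, as the log2 difference relative to the median of all genes tested, with standard errors; filled points passed the test of the unshifted difference, so some small relative values are filled and some larger ones open at 48 h. Filled points number 30 at 48 h, 16 in zygotes, 3 in full-grown oocytes and 0 at P7 and in ST embryos.

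In the Dnmt3l pair, with 1 library each and no test, 44 members reached 5 FPKM in the higher library. Of these, 2 lay past 2-fold on the (FPKM + 1) scale, both higher in the library labelled knockout, and none lower, against 0.732% of 6015 genes higher and 0.665% lower. Mcm10 stood at 12.3 and 30.01 FPKM in the libraries labelled control and knockout, a ratio of 2.32, and Lig1 at 2.40 and 6.17, a ratio of 2.11. The next were Rfc1 (1.504), Rpa1 (1.46) and Mcm7 (1.39), and the lowest ratios were Pold4 (0.787), Gins1 (0.796), Pole4 (0.81), Mcm2 (0.844) and Orc6 (0.87). The other helicase genes had ratios of 0.982 (Mcm3), 1.34 (Mcm4), 1.18 (Mcm5) and 1.33 (Mcm6), and Pcna 1.17. In the library of the pair labelled control the ends of each complex were Orc5 (387) and Orc3 (11.1), Mcm4 (29.6) and Mcm3 (6.11), Gins2 (123) and Gins3 (7.67), in FPKM. For the others they were Rfc3 (93.6) and Rfc1 (7.70), Rpa3 (221) and Rpa1 (33.6), Prim2 (40.97) and Pola1 (1.55), Pold3 (81.2) and Pold1 (0.309), Pole4 (366) and Pole (1.74), and Rrm2 (149) and Rrm1 (4.002). These differences have no replicate check, and Dnmt3l itself stood at 31.7 and 25 FPKM in the same libraries.

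Other genes of replication and its control, 63 by a list made beside the members, stood in the tables in 62 cases. At P7 and in ST embryos none of 59 and 55 tested passed. In full-grown oocytes 2 of 61 were higher and 4 lower in the knockout, beside 2.02% and 4.89% of all genes. The S-phase cyclin Ccne2 stood at 24.9 and 19.7 in controls and 84.8 and 76.1 in the knockout (log2 2.00, SE 0.25, adjusted p = 0.00447). The histone chaperone gene Ssrp1 stood at 13.4 and 15.3 in controls and 3.65 and 4.91 in the knockout (log2 -1.36, adjusted p = 0.0123). Rnaseh1, which removes RNA from hybrids with DNA, was at 50.9 and 44.9 in controls and 101 and 104 in the knockout (log2 1.28, adjusted p = 0.0201), and the nuclease Dna2 at 4.82 and 6.55 in controls and 1.31 and 1.81 in the knockout (log2 -1.19, adjusted p = 0.0241). In zygotes 10 were higher and 13 lower, beside 18.5% and 13.1% of all genes. Dscc1, a subunit of an alternative clamp loader, stood at 1.897 and 1.58 in controls and 19.7 and 39.97 in the knockout (log2 3.40, SE 0.33, adjusted p = 9.06e-05). The thymidylate synthase gene Tyms stood at 1.97 and 2.99 in controls and 21.2 and 55.5 in the knockout (log2 3.35, SE 0.36, adjusted p = 0.000138). Rnaseh1 (21.2 and 21.1 in controls and 77.7 and 108 in the knockout, adjusted p = 0.000138) and Rnaseh2a (0.997 and 0.474 in controls and 8.51 and 20.3 in the knockout, adjusted p = 0.000159) were higher too. At 48 h 20 were higher and 23 lower, beside 43.2% and 30.6% of all genes. Cyclin E1 (Ccne1) stood at 263 and 329 in controls and 14.9 and 17.1 in the knockout (log2 -4.55, SE 0.25, adjusted p = 8.57e-08). The E2F family member E2f5 stood at 19.7 and 16.8 in controls and 215 and 227 in the knockout (log2 3.10, adjusted p = 1.23e-07). Slbp, which binds histone mRNA, stood at 188 and 222 in controls and 1586 and 1709 in the knockout (log2 2.57, adjusted p = 4.35e-07). The fork protection gene Timeless stood at 2.86 and 2.48 in controls and 45.9 and 30.3 in the knockout (log2 2.95, adjusted p = 6.5e-07).

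Within controls, 26 of the 61 other genes rose and 15 fell from full-grown oocyte to zygote, beside 18.5% and 24% of all genes. From zygote to 48 h 23 rose and 20 fell, beside 33.4% and 42.7%. Dscc1 went from 33.9 and 44.7 to 1.897 and 1.58 in the first step (adjusted p = 2.21e-05), and Tyms from 58.3 and 61.6 to 1.97 and 2.99 (adjusted p = 2.34e-05). Rnaseh2a went from 17.3 and 17.1 to 0.997 and 0.474 (adjusted p = 4.7e-05) and Dctpp1 from 154 and 164 to 29.4 and 25.8 (adjusted p = 0.000123). In the second step Ccne1 went from 4.79 and 7.63 to 263 and 329 (adjusted p = 1.24e-08), and E2f5 from 291 and 249 to 19.7 and 16.8 (adjusted p = 5.89e-08). Slbp went from 2182 and 3010.2 to 188 and 222 (adjusted p = 8.33e-08) and Timeless from 52.5 and 40.98 to 2.86 and 2.48 (adjusted p = 2.7e-07). In the knockout 19 rose and 2 fell in the first step, beside 12.6% and 5.1% of all genes, and none of 61 passed in the second, beside 0.139% and 0.0656%. The difference between the genotypes passed for 5 of 61 in the first step, all higher in the knockout (8.29% of all genes higher and 1.1% lower), and for 20 higher and 19 lower in the second (36.7% and 29.5%).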

How the data were processed

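Smart-seq2 RNA-seq libraries of mouse oocytes and embryos were used. The deposited tables give FPKM per gene symbol; per the submitters' processing notes, the authors used TopHat2 2.0.11 and Cufflinks 2.0.2 with the mm9 build. Depth was estimated from the value that 1 fragment adds in genes with 1 transcript (the first peak of FPKM times length), so it is approximate. The 51 genes and the lists of other genes were chosen with earlier results of these data known. Groups were taken from the labels, and every column of values belonged to a sample.

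Within each table, log2(FPKM + 1) of genes that reached 1 FPKM in 2 or more libraries was fitted with limma 3.58.1 (R 4.3.3; group means, variance trend, Benjamini-Hochberg adjustment over all genes tested, called at an adjusted p of 0.05). The 12 libraries of full-grown oocytes, zygotes and 48 h embryos shared 1 fit. An exact permutation test of 2 against 2 libraries cannot go below p = 0.333. In the Dnmt3l pair, folds of (FPKM + 1) were taken over genes with at least 5 FPKM. The scripts were tested on simulated data.

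Genes were named by rule: Mcm2 to Mcm7 and Pcna at every stage, up to 12 called genes with the smallest adjusted p each way in a Setd2 comparison (or the 3 nearest where under 3 passed) and up to 6 each way in a difference test, the 5 largest folds each way in the Dnmt3l pair, the ends of each complex in controls, and up to 4 called genes of the other list. Further members are named to complete a count or a role. Alternatives were a pseudocount of 0.1, no filter, a filter of 5 FPKM, median-ratio rescaling, quantile normalization, the replicate block, only the groups compared, and each library left out.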

Additional observations from a re-analysis of the deposited data

Results flagged for a closer look

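The change from full-grown oocyte to zygote differed between the genotypes, by limma's test of the difference, in 4 of the 51 genes. Of all genes tested, 8.29% had a higher and 1.1% a lower change in the knockout. Values are relative to the median of all genes. The knockout's change was higher by 3.03 on the log2 scale in Rfc2 (adjusted p = 0.00568), 1.59 in Rfc4 (adjusted p = 0.00509), 1.16 in Prim1 (adjusted p = 0.0404) and 1.12 in Pold2 (adjusted p = 0.0445). With no filter on low values Rfc2, Prim1 and Pold2 did not pass. Prim1 and Pold2 also lost their calls when any 1 library of full-grown oocytes or zygotes was left out, except knockout zygote library 1.

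The change from zygote to 48 h differed by the same kind of test, with 16 genes higher and 14 lower in the knockout. Of all genes tested, 36.7% and 29.5% were called in these directions. Among the genes named, the knockout's change was higher in Orc5 (3.32), Rpa1 (2.79), Mcm4 (1.91), Rpa3 (1.73), Rfc3 (1.28) and Pold3 (1.06). It was lower in Prim1 (-3.69), Rpa2 (-3.46), Gins3 (-3.25), Pole (-3.04), Gmnn (-2.69) and Rrm2 (-2.47). The embryos compared at 48 h are at different labelled cell stages, so genotype and stage cannot be told apart.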

How the results depend on the processing

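Of 119 calls of named genes, 83 held in every alternative, among them all 24 for knockout against control at 48 h and all 12 for the difference in the zygote-to-48 h step, and none of the alternatives run turned a direction. The shares of all genes called under these alternatives are not given, here or beside the counts above. Counts of members under them therefore do not tell a move of the members from one of all genes. Counts of called members moved by over 1.5 times as follows, and the cause was not tested. With no filter on low values, 1 gene was called in full-grown oocytes, 8 in zygotes, 6 from oocyte to zygote in the knockout and 1 in the difference of that step. Median-ratio rescaling gave 1 in full-grown oocytes and 2 in that difference, and quantile normalization 0 and 2. With only the groups compared in the fit, 8 were called in full-grown oocytes and 3 from oocyte to zygote in the knockout. The replicate block gave 1 at P7 and 8 in the oocyte-to-zygote difference. Same-numbered libraries had correlations of their deviations of 0.042 (P7), 0.19 (full-grown oocyte), 0.074 (zygote), 0.0024 (48 h) and 0.072 (ST embryo), so they were taken to share only a number.

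Leaving out 1 library gave 0 to 0 calls for knockout full-grown oocytes, 8 to 17 for knockout zygotes, 16 to 21 from oocyte to zygote in controls, 1 to 19 in the knockout, 0 to 1 from zygote to 48 h in the knockout and 2 to 10 in the oocyte-to-zygote difference. A group left with 1 library was assumed to vary like the others. Pole4 lost its call from zygote to 48 h in controls with median-ratio rescaling (adjusted p = 0.051). Zygote libraries were the shallowest, and levels that rest on few fragments, such as Pold1 and Pold4 there, limit what could be seen.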
